A study of Drosophila melanogaster with 62 samples.

Results

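The contacts of the *dac* gene body were examined in 4C-seq data from *Drosophila melanogaster*. *dac* (FBgn0005677) lies on chromosome 2L from 16466512 to 16485998 of dm6, on the minus strand, and overlaps 20 of the 23514 bins of 1 kb on that arm. A bin was kept where its start lay more than 5 kb from the start of the viewpoint bin, which left 16 bins from the viewpoint at PRE2 and 15 bins from the gypsy2 viewpoint, 11 of them shared. 4C-seq sequences whatever DNA was joined to a chosen viewpoint fragment, and a count reflects how often a region met it. Of the 62 samples of the series, 24 were 4C-seq libraries, and each was counted from both viewpoints.

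The wild-type (WT) groups were embryos, larval imaginal leg discs and pupal imaginal leg discs, with 3 libraries each. The gypsy2 insertion was studied in the same 3 tissues with 3 libraries each, and the gypsy1 insertion in embryos only, as 3 libraries whose columns could be assigned to the group but not to single replicates. Embryo replicates 4 to 6 are titled WT, but their genotype field names a gypsy insertion. They were kept apart and are called titled WT here. All flies were kept at 20 °C, and the labels give no strain, no sex and no embryo age. The columns of the gypsy2 libraries also carry the letters enh, which the labels do not explain, and other samples of the series are titled RE deletion. Nothing says whether replicates came from separate collections, so the p-values measure the spread between libraries, which may be technical.

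*dac* encodes Dachshund, a nuclear factor required for the intermediate segments of the leg and for the eye. Polycomb proteins keep the gene silent where it is not needed, and they are recruited by Polycomb response elements (PREs), one of which, PRE2, is next to the *dac* promoter. The gypsy insulator comes from a retrotransposon and binds the protein Su(Hw), and it can block an enhancer when it lies between the enhancer and a promoter. Contact counts hold no expression values, so the tissue labels could not be checked against marker genes.

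The viewpoint bin held more counts than any other bin of its table in all 24 libraries from each viewpoint. For PRE2 this was the bin from 16487001 to 16488000, just upstream of the annotated *dac* start, and for gypsy2 the bin from 16465001 to 16466000, just beyond the 3′ end. The gene was therefore seen from its promoter side by PRE2 and from its 3′ side by gypsy2. Libraries held 800269 to 25904672 counts in all and 26685 to 1232840 in the kept *dac* bins, where no bin was at 0. The counting error of the *dac* total was at most 0.612%, while that of the lowest single bin reached 33.3% in a library with 9 counts there. Embryo WT and gypsy1 libraries were shallow (at most 1466760 counts), and embryo gypsy2 and titled WT libraries were deep (at least 14352600). Embryo gypsy2 against embryo WT is therefore a comparison in which depth and genotype cannot be told apart, and titled WT is given beside it.

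Reads of a 4C library start at restriction sites, and no source used here names the enzymes. Among the 16 palindromic tetramers, the number of GATC sites per bin tracked the WT counts within 500 kb of PRE2 most closely (Spearman's rho = 0.46 over 990 bins, against 0.13 for CATG, the next). Bins without GATC, 18.6% of them, had a median WT count of 95.5, and bins with it of 3400. *dac* has 66 GATC sites, between 1 and 10 per bin, so that every *dac* bin can be read if GATC was the site. The sites of the 5 *dac* bins with a single GATC are shown because the counts of these bins rest on few fragment ends. Those of the bin from 16482001, which has 5, are shown because this bin changed in the gypsy2 libraries. Each sequence is the plus strand of dm6 with the site in capitals, named by the first base of the site, and the *dac* transcript runs along the opposite strand.
site16467583: gattgcactctgaGATCaaataaatcctcg
site16471682: ccaactgtggatgGATCgccactcacagtg
site16475504: gcctcagcacagtGATCgcaattcagcaaa
site16481539: tttctggtggcttGATCgataggcatctgc
site16482317: cgatatccaagaaGATCtcaatttttgcct
site16482690: catgaaatatttgGATCtcctggggatcaa
site16482701: tggatctcctgggGATCaatcggaatatta
site16482733: ctttaattgtgttGATCttttaagcctttt
site16482771: atctaagccattcGATCtaatcacaattta
site16485360: tgaagctaatttgGATCcttactgccaatt
The site at 16467583 lies in the 3′ UTR, that at 16481539 in a coding exon of 27 bp, and the others in introns of *dac*.

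In WT, counts were spread unevenly over the gene. A share is the percentage of all 2L counts outside 5 kb of the viewpoint. Over the 9 WT libraries, the median kept bin had a mean share of 0.439% from PRE2 and 0.703% from gypsy2. Pooled over stages, the highest bin from PRE2 was chr2L:16480001-16481000, an intronic bin with 5 GATC sites (0.849% ± 0.198, SD, n = 9). By stage it was highest in embryo WT, while chr2L:16475001-16476000 was above it in larval WT (1.13% against 1.08%) and in pupal WT (0.694% against 0.634%). The lowest bin in each stage was chr2L:16467001-16468000 in the 3′ UTR and last coding exon (0.0394% ± 0.0179). From gypsy2 the bin from 16475001, which has a single GATC, was highest over the pooled libraries (1.36% ± 0.189) and in larval WT. In embryo WT the bin from 16472001 was above it (1.34% against 1.27%), and in pupal WT the bin from 16484001 (1.32% against 1.24%). The lowest bin over the pooled libraries was chr2L:16485001-16486000 at the 5′ UTR (0.137% ± 0.0834), and in pupal WT it was the bin from 16482001 (0.140%). The same bins were high from both viewpoints: the log2 shares of the 11 shared bins correlated with r = 0.95 in embryo WT, 0.94 in larval WT and 0.92 in pupal WT. These points share the libraries and the site content of each bin, and within *dac* the number of GATC sites tracked the WT share only weakly (rho = 0.37 over 16 bins from PRE2 and 0.21 over 15 bins from gypsy2).

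**Figure D1:**
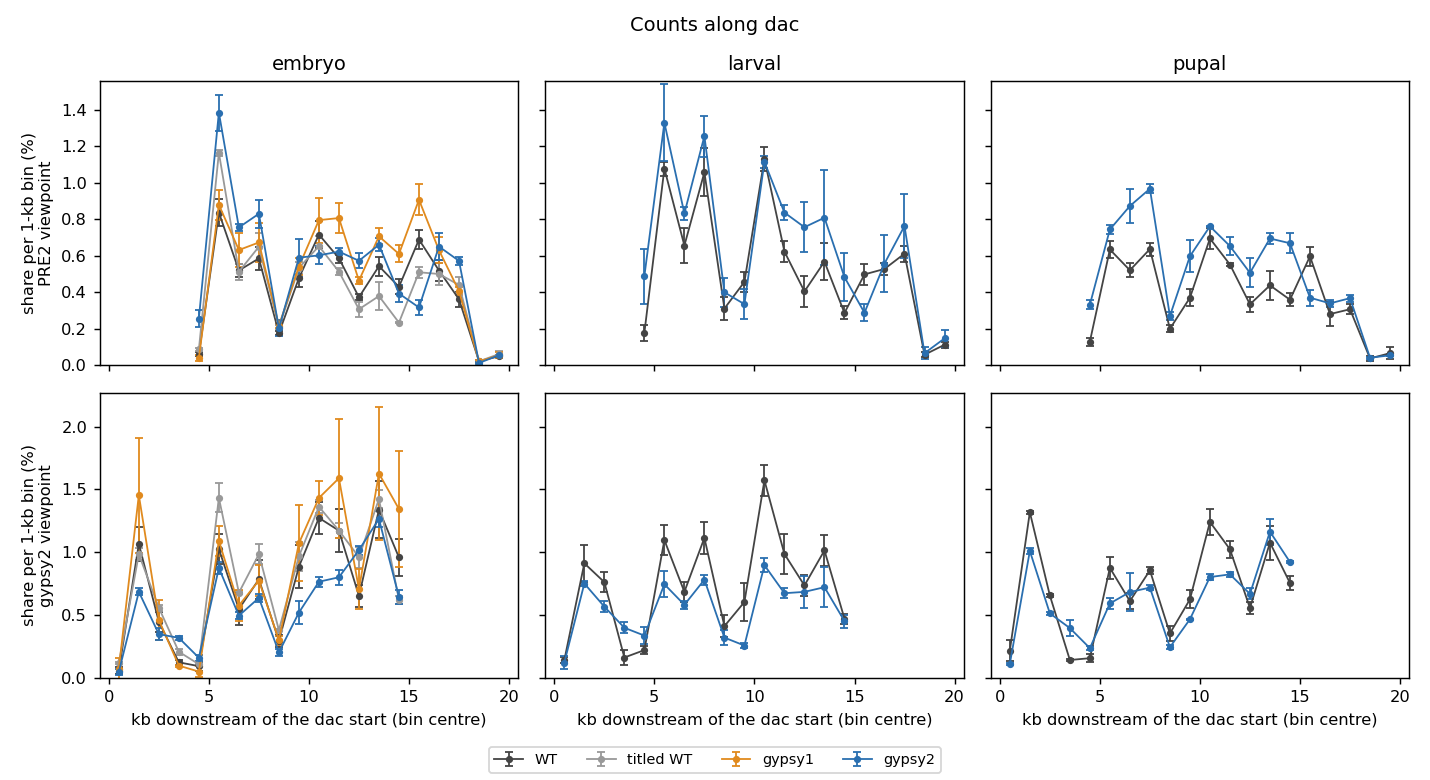
Mean share of 2L counts per 1-kb bin (%) against the distance of the bin centre downstream of the *dac* start (kb), for the PRE2 viewpoint (top) and the gypsy2 viewpoint (bottom) in embryos, larval and pupal leg discs. Points are means of 3 libraries and bars are SD. Bins near each viewpoint are left out, so the top row lacks the start of the gene and the bottom row its end.

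The WT share of *dac* seen from PRE2 differed between stages, with larval leg discs highest. The 3 libraries gave 6.89%, 6.85% and 7.09% in embryos, 8.03%, 8.87% and 8.76% in larval leg discs, and 6.32%, 6.14% and 6.01% in pupal leg discs. No stage overlapped another, and each pair of stages had the smallest p that 3 libraries against 3 allow (exact two-sided permutation test, p = 0.1). Depth separated the stages as well, with 800269 to 1320945 counts in embryo WT, 2274115 to 2450581 in larval WT and 9531010 to 13791311 in pupal WT. So did the part of 2L counts in the viewpoint bin (19.1% to 24.9%, 13.6% to 14.5% and 36.8% to 39.7%). Stage and depth cannot be told apart here. The counts were also tested with edgeR's quasi-likelihood test after the kept bins were summed into 1 window and the rest of 2L into windows of the same length (16 kb from PRE2, 15 kb from gypsy2). WT pupal fell by 0.69 in log2 against larval (SE 0.12, adjusted p = 0.00055), 1 of 8 windows called among 1446 (0.553%), and the call was lost with 10 kb left out at the viewpoint (−0.58, adjusted p = 0.0597). Larval against embryo gave a log2 change of 0.49 (SE 0.12), which missed the threshold (edgeR adjusted p = 0.0571) in a comparison that called 0.765% of windows. It passed with DESeq2 (adjusted p = 4.68e-05), with total-count scaling (0.0151) and without larval WT replicate 2 or 3 (0.0229 and 0.0435).

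From gypsy2 the WT share of *dac* overlapped between stages, with 10.7%, 10.1% and 11.3% in embryos, 10.7%, 9.80% and 12.1% in larval discs and 10.6%, 10.7% and 9.98% in pupal discs. The windows gave a log2 change of 0.17 for larval against embryo (SE 0.12, edgeR adjusted p = 0.592) and −0.25 for pupal against larval (SE 0.11, adjusted p = 0.529). These comparisons called 0.846% and 0.518% of windows. The 3′ part of the gene, which is nearest to this viewpoint, had a lower share in larval WT (1.46%, 1.35% and 1.64% over its 2 kept bins) than in embryo WT (2.63%, 1.89% and 2.37%), without overlap (exact permutation p = 0.1). It was higher in pupal than in larval WT (1.23-fold). The promoter part was higher in larval and pupal WT than in embryo WT (1.18-fold and 1.19-fold), and the middle part lower in pupal than in embryo WT (0.919-fold). These differences had no overlap either (exact permutation p = 0.1). Depth separated the stages too, with at most 1461170 counts in embryo WT, 3998000 to 4811770 in larval WT and at least 13288200 in pupal WT from this viewpoint.

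With the gypsy2 insertion, *dac* took a larger share of the PRE2 contacts in every stage. Embryo gypsy2 libraries had 8.40%, 8.50% and 8.53%, larval ones 11.5%, 10.3% and 9.51%, and pupal ones 8.22%, 8.17% and 8.32%, and in each stage all of them lay above all WT libraries. The fold changes of the share were 1.22 in embryos, 1.22 in larval discs and 1.34 in pupal discs. The log2 difference averaged 0.33 over the 3 stages, with p = 0.00025, the smallest p that an exact permutation within stages allows. Against titled WT, whose libraries had 6.55%, 6.84% and 6.93%, embryo gypsy2 was 1.25-fold higher, again without overlap.

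This rise depends on what the share is taken of. The viewpoint bin alone held 50.2% to 62.0% of 2L counts in embryo gypsy2 against 19.1% to 24.9% in embryo WT and 43.4% to 59.3% in titled WT. In larval discs it held 19.9% to 36.5% in gypsy2 and 13.6% to 14.5% in WT, and in pupal discs 36.8% to 43.5% and 36.8% to 39.7%. When the viewpoint was counted in the total, the mean log2 difference over stages changed sign to −0.18 (exact permutation p = 0.248). The part of the viewpoint counts in the result was not tested further.

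The window fit gave the same direction in each stage but called it in 2 of 3. The log2 change was 0.37 in pupal discs (SE 0.034, edgeR adjusted p = 8.94e-10), where 0.829% of windows were called, and 0.21 in embryos (SE 0.046, adjusted p = 0.00977), where 5.96% were. Larval discs gave 0.18 (SE 0.15, adjusted p = 0.871), in a comparison that called 0.208% of windows. Against titled WT, embryo gypsy2 rose by 0.27 (SE 0.042, adjusted p = 6.72e-05), with 0.693% of windows called. The embryo call was lost when bins were capped at each library's 99th percentile of bins within 500 kb (log2 0.03, adjusted p = 0.788), when 10 kb was left out at the viewpoint (0.03, adjusted p = 0.862), and without WT replicate 1, WT replicate 2 or gypsy2 replicate 5 (adjusted p = 0.117, 0.0604 and 0.0589), and the cap also ended the call against titled WT (0.14, adjusted p = 0.197).

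**Figure D2:**
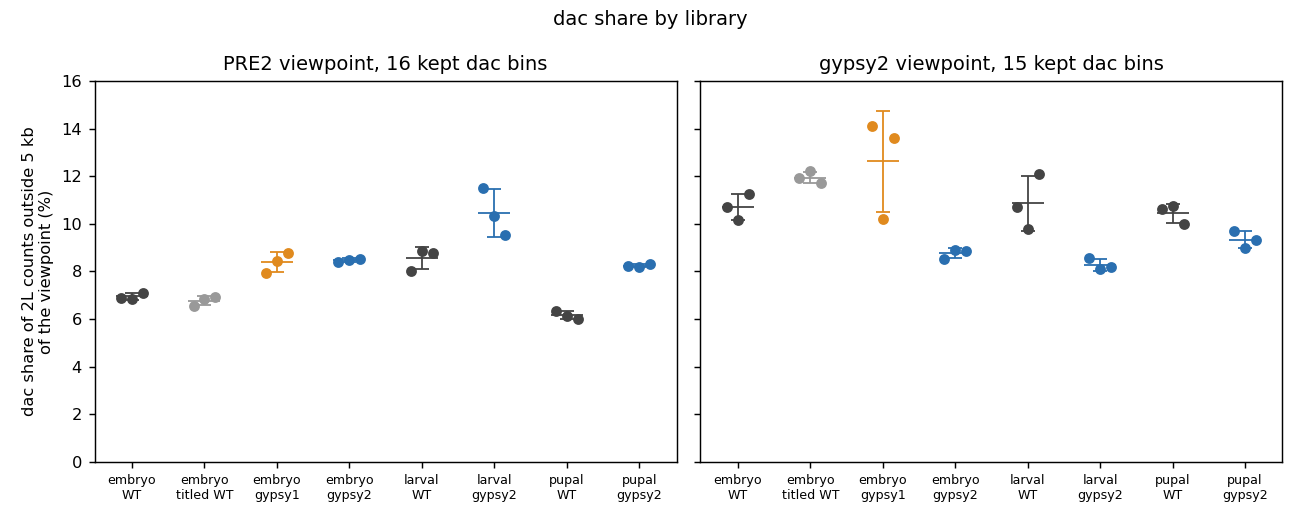
Share of *dac* in the 2L counts outside 5 kb of the viewpoint (%) in every library, by stage and genotype, for the PRE2 viewpoint (left, 16 kept bins) and the gypsy2 viewpoint (right, 15 kept bins). Points are libraries, horizontal marks are means and bars are SD (n = 3). The gypsy2 libraries lie above WT from PRE2 and below WT from gypsy2 in every stage, and the 3 gypsy1 libraries from gypsy2 span 10.2% to 14.1%.

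The gene was then divided into a promoter part (7 bins), a middle part (6 bins) and a 3′ part (7 bins). From PRE2 the rise was largest in the promoter part, of which 3 bins were kept. Its share was 1.36%, 1.40% and 1.48% in embryo WT and 2.36%, 2.34% and 2.49% in embryo gypsy2. It was 1.73%, 2.06% and 1.94% against 2.84%, 2.78% and 2.33% in larval discs, and 1.27%, 1.28% and 1.31% against 1.86%, 1.87% and 2.11% in pupal discs. All gypsy2 libraries were above all WT libraries of their stage, with a mean log2 difference of 0.61 over stages (exact permutation p = 0.00025). Embryo titled WT was itself above embryo WT here (1.70%, 1.82% and 1.77%), and gypsy2 was 1.36-fold above titled WT. The middle part rose by 0.30 (exact permutation p = 0.00025) and the 3′ part by 0.18 (p = 0.004). With the viewpoint counted in the total, the promoter part gave 0.093, the middle part −0.22 and the 3′ part −0.34 (exact permutation p = 0.457, 0.214 and 0.0703). In the 3′ part embryo WT and gypsy2 libraries overlapped (log2 difference 0.03).

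The ratio of *dac* to the other side of PRE2 did not change past the test. The stretch mirrored across the viewpoint, chr2L:16493001-16509000, holds most of the gene *Tpr2*. In WT, *dac* had more counts than this stretch, by a mean log2 ratio of 0.72 in embryos, 0.65 in larval discs and 0.18 in pupal discs. The ratio in gypsy2 was 0.75, 0.57 and 0.27, which overlapped WT in each stage (mean log2 difference 0.02 over stages, exact permutation p = 0.718). With 3 kb or 10 kb left out at the viewpoint in place of 5 kb, *dac* rose more than the other side (log2 0.18, exact permutation p = 0.00475, and 0.17, p = 0.00975).

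From the gypsy2 viewpoint the change ran the other way. The share of *dac* was 8.52%, 8.90% and 8.86% in embryo gypsy2, 8.55%, 8.08% and 8.17% in larval gypsy2 and 9.70%, 8.97% and 9.32% in pupal gypsy2, each below all WT libraries of the stage. The fold changes were 0.819, 0.763 and 0.893, and the mean log2 difference over stages was −0.28 (exact permutation p = 0.00025, the smallest possible). With the viewpoint counted in the total it was −0.73 (exact permutation p = 0.00025). Titled WT had 11.9%, 12.2% and 11.7%, and embryo gypsy2 was 0.733 times that level.

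The window fit called this fall only against titled WT, where the log2 change was −0.46 (SE 0.049, edgeR adjusted p = 4.59e-17) beside 12.2% of windows called. Against WT it gave −0.20 in embryos (SE 0.070, adjusted p = 0.0558, 13.0% of windows called), −0.27 in larval discs (SE 0.16, adjusted p = 0.876) and −0.07 in pupal discs (SE 0.061, adjusted p = 0.836). In larval discs it called none of 1538 windows, and in pupal discs 0.259%. With total-count scaling in place of TMM factors the embryo and pupal changes passed (log2 −0.27, adjusted p = 0.000565, and −0.16, adjusted p = 0.0262), and DESeq2 gave adjusted p = 0.0495 in embryos. The pupal change also passed without WT replicate 3 (−0.16, adjusted p = 0.0376), and under the cap it turned to 0.12.

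The middle part of *dac* was lower with gypsy2 in every stage. Its 6 bins had 4.98%, 4.89% and 5.30% in embryo WT and 3.74%, 4.04% and 4.02% in gypsy2. Larval values were 5.33%, 4.77% and 6.15% against 3.71%, 3.58% and 3.53%, and pupal values 4.69%, 4.87% and 4.39% against 3.74%, 3.71% and 3.69%. No stage overlapped, and the mean log2 difference was −0.42 (exact permutation p = 0.00025). The promoter part fell by 0.18 in log2 (exact permutation p = 0.00025), and the 2 kept bins of the 3′ part gave −0.14 (p = 0.185), lower than WT in larval discs and higher in pupal discs. With 3 kb left out, so that more of the 3′ part was kept, it gave −0.47 (exact permutation p = 0.00075) and the middle part −0.43.

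Here the 2 sides of the viewpoint did not move together. In WT, *dac* and the stretch mirrored across the viewpoint, chr2L:16445001-16460000, held similar counts, with mean log2 ratios of 0.07 in embryos, −0.13 in larval discs and 0.30 in pupal discs. In gypsy2 the ratios were −0.78, −0.90 and −0.30, without overlap in any stage. The mean log2 difference was −0.74 (exact permutation p = 0.00025), and that of embryo gypsy2 from titled WT was −0.73.

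**Figure D3:**
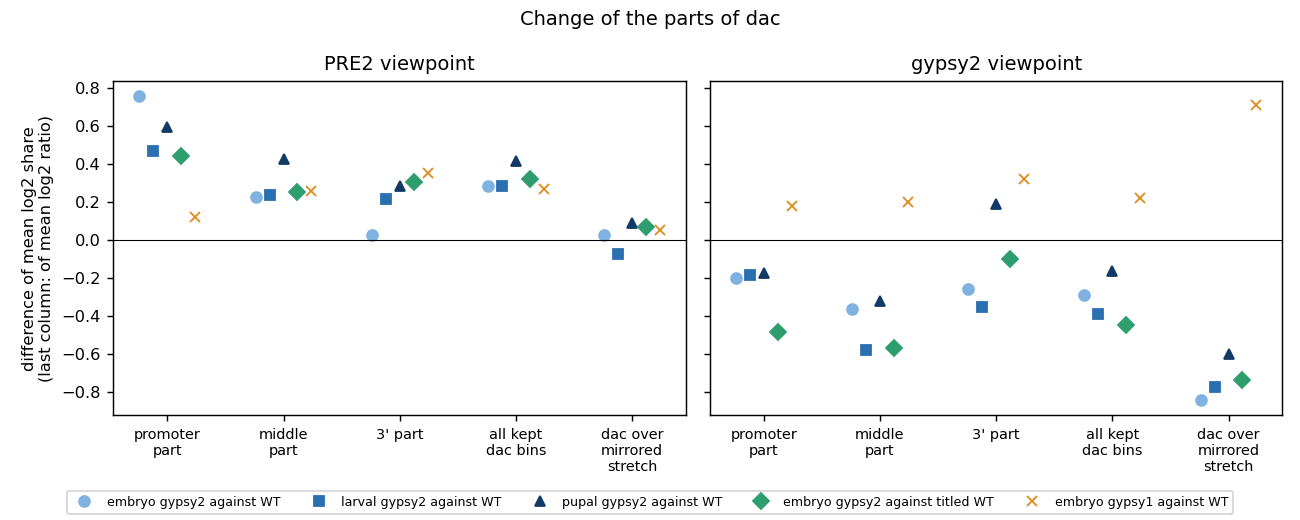
Difference in mean log2 share between genotypes for the promoter, middle and 3′ parts and for all kept *dac* bins, and difference in the mean log2 ratio of *dac* to the stretch mirrored across the viewpoint, for the PRE2 viewpoint (left) and the gypsy2 viewpoint (right). Each symbol is 1 comparison of 3 libraries with 3. From PRE2 the gypsy2 symbols of the shares lie above 0 and the mirrored ratio near 0, and from gypsy2 the mirrored ratio lies lowest, between −0.84 and −0.60 for the 4 gypsy2 comparisons.

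Single bins did not all follow the gene. From PRE2, 7 of 16 kept bins had a positive fitted change in every stage, 1 a negative one and 8 changed sign between stages. These are signs of the fit with TMM factors. Of the 8, the bins from 16469001, 16474001 and 16478001 had a higher mean log2 share than WT in every stage. In embryos, larval and pupal discs they gave 0.32, 0.04 and 0.30, then 0.09, 0.43 and 0.24, then 0.51, 0.25 and 0.60. The rest of the 8 were mixed in shares too. From gypsy2, 9 of 15 were negative in every stage, 2 positive and 4 mixed. How many of all 2L bins kept the same sign in every stage was not counted, so these counts are not read as a trait of *dac*. In larval discs the median fitted change over all bins tested was itself negative (−0.12 from PRE2 and −0.24 from gypsy2). The 2 bins that rose against the fall seen from gypsy2 are neighbours, chr2L:16481001-16482000 and chr2L:16482001-16483000, in the promoter part.

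The bin from 16481001 holds a short coding exon and was low in WT. From PRE2 its share was 0.0565%, 0.0718% and 0.0504% in embryo WT and 0.308%, 0.225% and 0.236% in embryo gypsy2. It was 0.146%, 0.230% and 0.156% against 0.419%, 0.662% and 0.385% in larval discs, and 0.124%, 0.112% and 0.153% against 0.330%, 0.308% and 0.358% in pupal discs. All gypsy2 libraries were above WT, and edgeR called the rise in embryos (log2 1.99, SE 0.18, adjusted p = 0.00125) and pupal discs (1.36, SE 0.14, adjusted p = 0.000106) but not in larval discs (1.16, SE 0.23, adjusted p = 0.112). Titled WT, at 0.0913%, 0.0908% and 0.0784%, was below gypsy2 (log2 change of gypsy2 1.49, SE 0.15, adjusted p = 0.000841). It was itself above embryo WT without overlap (1.47-fold). From gypsy2 the same bin gave log2 changes of 0.81 in embryos, 0.47 in larval discs and 0.70 in pupal discs, none of which edgeR called (adjusted p = 0.379, 0.875 and 0.412).

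The intronic bin from 16482001 was kept from gypsy2 only. Its share there was 0.0997%, 0.133% and 0.132% in embryo WT and 0.318%, 0.301% and 0.331% in embryo gypsy2. In larval discs it was 0.108%, 0.229% and 0.143% against 0.417%, 0.427% and 0.347%, and in pupal discs 0.139%, 0.132% and 0.149% against 0.454%, 0.328% and 0.401%. No library overlapped between genotypes, and edgeR called the rise in embryos (log2 1.39, SE 0.15, adjusted p = 0.00468) and pupal discs (1.58, SE 0.17, adjusted p = 5.28e-05), with 1.18 in larval discs (SE 0.28, adjusted p = 0.690). Titled WT lay between (0.234%, 0.198% and 0.185%), and gypsy2 was above it by 0.61 (SE 0.11, adjusted p = 0.0349). From PRE2, where this bin is 5 kb from the viewpoint and was left out, its share was 0.141% to 0.160% in embryo WT and 0.630% to 0.733% in embryo gypsy2. The gypsy1 libraries did not show the rise, with 0.0851%, 0.102% and 0.0992% from gypsy2.

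One bin of the 3′ part fell against the rise seen from PRE2. The intronic bin chr2L:16470001-16471000 had 0.713%, 0.630% and 0.723% in embryo WT and 0.272%, 0.340% and 0.337% in embryo gypsy2. Pupal values were 0.650%, 0.595% and 0.546% against 0.407%, 0.383% and 0.321%, and larval values 0.528%, 0.432% and 0.533% against 0.337%, 0.243% and 0.282%. All gypsy2 libraries were below WT. edgeR called the fall in embryos (log2 −1.24, SE 0.10, adjusted p = 0.000528), in pupal discs (−0.69, SE 0.11, adjusted p = 0.00962) and against titled WT (−0.76, SE 0.098, adjusted p = 0.00716), and not in larval discs (−1.04, SE 0.23, adjusted p = 0.199). Titled WT was itself below embryo WT in this bin without overlap (0.740-fold).

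From PRE2, edgeR called 2 bins up and 1 down of 16 in embryos, where 0.186% of all bins tested on 2L were called up and 0.378% down. It called 6 up and 1 down in pupal discs (0.0750% and 0.107%) and 3 up and 1 down against titled WT (0.0512% and 0.164%). With 1 library left out, the total was 2 to 4 in embryos, 4 to 5 in pupal discs (4 without WT replicate 1 or gypsy2 replicate 3) and 1 to 3 against titled WT (1 without any titled WT library or without gypsy2 replicate 5 or 6). From gypsy2 it called 1 up and 1 down of 15 in embryos (0.460% and 0.235%) and in pupal discs (0.0957% and 0.0585%). Against titled WT it called 1 up and 9 down (0.234% and 0.168%), and between 3 and 10 in all when a library was left out (3 without titled WT replicate 5). These totals were 1 to 2 in embryos (1 without WT replicate 3 or any gypsy2 library) and 1 to 5 in pupal discs (5 without WT replicate 3, 1 without any other). The share of all 2L bins called with a library left out is not given here. These ranges therefore show only how the calls depend on single libraries and are not read as a trait of *dac*. In larval discs edgeR called none, beside 0.134% of bins called from PRE2 and 0.0296% from gypsy2. There, 4 of 16 bins from PRE2 and 11 of 15 from gypsy2 had an unadjusted p under 0.05 in edgeR. How many of all 2L bins had such a p was not counted, so these counts are not read as a trait of *dac*. The median log2 change over all bins tested was −0.12 from PRE2 and −0.24 from gypsy2. DESeq2 called 2 and 3 *dac* bins, beside 133 of 14174 and 117 of 16881 bins tested.

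The only *dac* bin called down from gypsy2 in embryos and in pupal discs lay in the middle of the gene. The bin from 16475001 fell in embryos (log2 −0.72, SE 0.11, edgeR adjusted p = 0.0204) and pupal discs (−0.55, SE 0.092, adjusted p = 0.00873). Its larval shares were 1.54%, 1.47% and 1.71% in WT and 0.849%, 0.882% and 0.956% in gypsy2, also without overlap, but edgeR did not call it (−0.92, SE 0.15, adjusted p = 0.0672). Against titled WT the largest fall among the called bins was that of the bin from 16477001 (−0.93, SE 0.12, adjusted p = 0.00372). In mean log2 share, called or not, the bin from 16485001 at the 5′ UTR fell most against titled WT (−1.44) and in pupal discs (−0.91), without overlap. Against embryo and larval WT it overlapped (−0.31 and −0.28). There the bin from 16476001 fell most (−0.77 and −1.21), without overlap, and edgeR did not call it. From PRE2 edgeR did not call the bin from 16475001 in any stage, and this bin had 0.710%, 0.631% and 0.742% in pupal WT and 0.764%, 0.760% and 0.758% in pupal gypsy2.

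**Figure D4:**
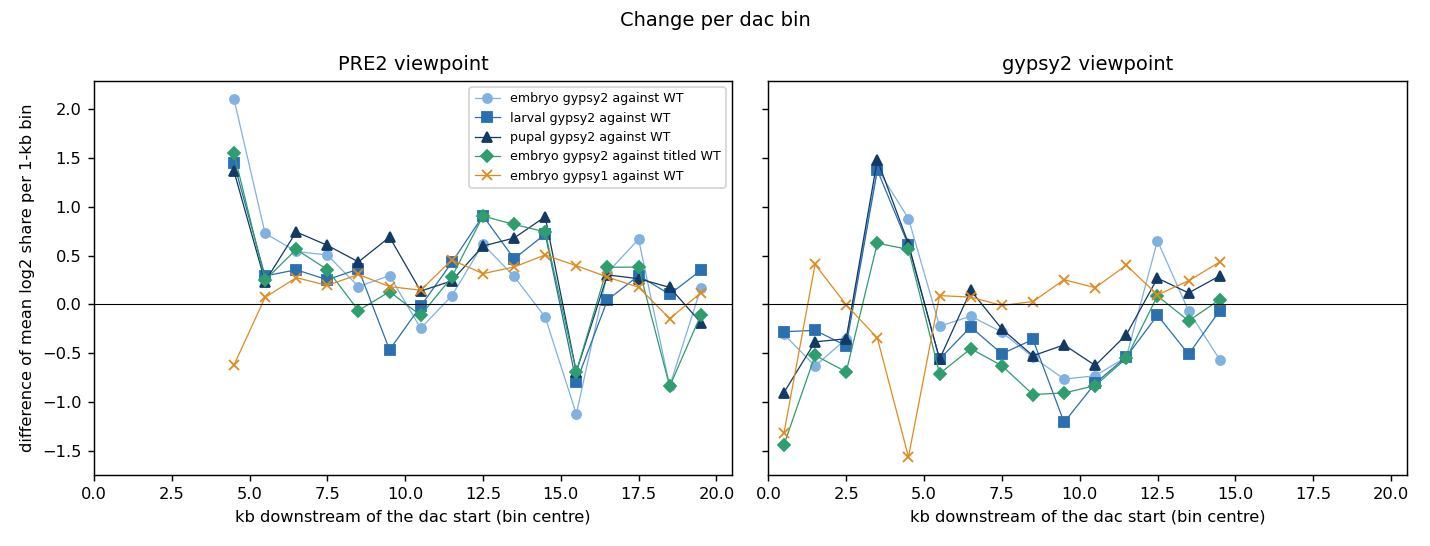
Difference in mean log2 share of each kept *dac* bin between genotypes, against the distance of the bin centre downstream of the *dac* start (kb), for the PRE2 viewpoint (left) and the gypsy2 viewpoint (right). Each line is 1 comparison of 3 libraries with 3. The gypsy2 lines share a peak in the promoter part in both panels and a dip in the 3′ part from PRE2, and the gypsy1 line has neither.

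In gypsy1 embryos the PRE2 share of *dac* was higher than in WT, and the gypsy2 share overlapped it. From PRE2 its 3 libraries had 7.95%, 8.43% and 8.78%, all above embryo WT and 1.21-fold higher on average. The window fit gave a log2 change of 0.18 (SE 0.065, edgeR adjusted p = 0.178) beside 1.26% of windows called. With total-count scaling it passed (0.28, adjusted p = 8.36e-05), as it did with the replicate number as a block (0.18, adjusted p = 0.0103). The range over the libraries left out was 0.14 to 0.24, with adjusted p between 0.00168 (without the gypsy1 column numbered 1) and 0.623. The gain was 1.28-fold in the 3′ part (3.35%, 3.22% and 3.43% against 2.73%, 2.44% and 2.67% in WT) and 1.09-fold in the promoter part, where the groups overlapped.

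From the gypsy2 viewpoint gypsy1 had 14.1%, 10.2% and 13.6%, and 1 library lay among the WT values while the others lay above them. The window gave 0.13 (SE 0.11, edgeR adjusted p = 0.835) beside 0.458% of windows called. The same library stood apart in the ratio of *dac* to the mirrored stretch, with log2 values of 1.16, 0.13 and 1.04 against −0.05 to 0.15 in WT. No *dac* bin was called from either viewpoint (1.38% of bins called from PRE2 and 0.253% from gypsy2). In that fit 6 *dac* bins from PRE2 and none from gypsy2 had an unadjusted p under 0.05, a share not counted over 2L. DESeq2 called no *dac* bin, beside 141 of 9926 bins tested from PRE2 and 55 of 11849 from gypsy2. With the replicate number as a block, 1 *dac* bin was called down from gypsy2 (59 of 11849 bins tested were called). From PRE2 that fit called 4 up (182 of 9926). Whether gypsy1 and gypsy2 differ was not tested, and their embryo comparisons share the WT libraries.

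The embryo groups without a titled insertion differed too. Titled WT against WT gave a *dac* window change of −0.07 from PRE2 (SE 0.037, edgeR adjusted p = 0.298, 5.34% of windows called), which passed with 10 kb left out (−0.22, adjusted p = 0.00431), and 0.23 from gypsy2 (SE 0.052, adjusted p = 0.0092, 8.06% called), and the latter call was lost without WT replicate 2 or titled WT replicate 5 (adjusted p = 0.0704 and 0.0623). The share from gypsy2 was higher in titled WT without overlap (1.12-fold). These groups differ in depth and in their genotype field, which cannot be told apart.

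No difference between stages in the gypsy2 change of *dac* was called. From PRE2 the difference between the pupal and embryo log2 changes was 0.15 (SE 0.055, edgeR adjusted p = 0.310), between pupal and larval 0.20 (SE 0.15, adjusted p = 0.995) and between larval and embryo −0.02 (SE 0.16, adjusted p = 0.978). From gypsy2 these were 0.13 (SE 0.094), 0.20 (SE 0.17) and −0.05 (SE 0.18), with adjusted p of at least 0.593. In the same order these tests called 0.484%, 0% and 0.139% of windows from PRE2 and 0.649%, 0% and 0.195% from gypsy2. The standard errors of the contrasts with larval discs, 0.15 to 0.18, are close in size to the changes themselves.

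Among 44 other genes with at least 5 bins within 500 kb of each viewpoint, those whose log2 share followed that of *dac* most closely over the 24 libraries were *crp* (r = 0.70), *Tpr2* (0.64) and *mtgo* (0.62) from PRE2. From gypsy2 they were *yellow-b* (r = 0.64), *Mhc* (0.60) and *grp* (0.55). All shares of a library are taken of the same total, and the libraries of a group are not independent of its genotype and depth.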

How the data were processed

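The values are raw read counts that the authors summed over 1-kb bins of dm6 and deposited without normalization, with a column for each library. Bowtie and dm6 are named in the submitters' processing notes. No source used here names the enzymes, the filters or the handling of PCR duplicates. Duplicates would raise single bins, so the counting errors given cover counting only. Hi-C and CUT&RUN libraries were not analysed here.

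Shares were taken of 2L counts outside 5 kb of the viewpoint and compared by exact two-sided permutation tests, which cannot go below p = 0.1 with 3 libraries against 3. Genotype labels were also permuted within stages (8000 arrangements). Counts per window and per bin with a mean of at least 10 per library were tested by the quasi-likelihood method of edgeR 4.0.16 with TMM factors, in R 4.3.3. Its p-values were adjusted by Benjamini-Hochberg over all features of 2L, and those under 0.05 were called. DESeq2 1.42.0 served as an alternative. Other steps used Python 3.11.15, numpy 2.4.6, pandas 2.3.3 and scipy 1.17.1. Gene models came from Ensembl release 115.

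The fits were tested on simulated counts, where the bin fit missed most changes of single bins and, in the pupal comparisons, called more unchanged bins than changed ones. Of 10 windows changed 2-fold within 500 kb, the window fit recovered 9 in larval and 6 in pupal discs from PRE2. From gypsy2 it recovered 6 in larval and 1 in pupal discs. At 4-fold it recovered all 10 in each. Changes smaller than 2-fold, as those of the *dac* window were, were not simulated. A bin or window that was not called may still have changed, and a single called bin may be a false call.

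Bins to be named were the highest and lowest of WT and those called with the largest change up and down per comparison. The 3 genes most like *dac* were ranked by Pearson's r of log2 share. The bins from 16481001, 16482001 and 16470001 in comparisons where they were not called, or where left out, were named after their values were seen. So was the bin from 16476001 in embryos and larval discs. The members and lists were chosen with earlier results of these data known. Samples were grouped by the sample labels. Same-numbered gypsy1 and WT columns deviated together from gypsy2 (correlations of 0.15, 0.22 and 0.16 over 1528 windows). From PRE2 their correlations were 0.0041, 0.094 and 0.062 over 1428 windows. Both viewpoints count the same libraries, so whether the number pairs them was not settled, and fits of gypsy1 with and without it are given. The paired fit changed no call of the *dac* window from gypsy2 (log2 0.12, edgeR adjusted p = 0.682). It called the window from PRE2 (0.18, adjusted p = 0.0103). In no comparison but gypsy1 against WT from gypsy2 did every pair exceed 0.1.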

Additional observations from a re-analysis of the deposited data

How the results depend on the processing

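In all, 646 alternatives were run for 42 results. The cause of the changes below was not tested. Capping bins moved the PRE2 window change of embryo gypsy2 to 0.030 against WT and 0.14 against titled WT, and from gypsy2 that of pupal gypsy2 to 0.12 and of gypsy1 to −0.22. Leaving out 10 kb gave 0.026 for embryo gypsy2, −0.22 for titled WT against WT (now past the threshold) and −0.58 for WT pupal against larval (no longer past it) from PRE2, and −0.24 for embryo gypsy2 from gypsy2. Total-count scaling gave 0.28 for gypsy1 and 0.31 for WT larval against embryo from PRE2, and −0.27 for embryo and −0.16 for pupal gypsy2 from gypsy2. DESeq2 gave 0.49 for WT larval against embryo from PRE2 and −0.22 for embryo gypsy2 from gypsy2. Within 500 kb, titled WT against WT from PRE2 was 0.025. The difference of larval and embryo changes from PRE2 was 0.0062 with total-count scaling.

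For shares over the 3 stages, counting the viewpoint gave −0.18 for *dac*, 0.093 for the promoter part, −0.22 for the middle part and −0.34 for the 3′ part from PRE2, and −0.59 for the 3′ part from gypsy2. Shares of counts over 200 kb away gave 0.081 for the 3′ part from PRE2 and −0.12 for the promoter part from gypsy2, which was −0.047 with capped bins. With 3 kb left out the 3′ part from gypsy2 was −0.47 and the *dac* to mirror ratio from PRE2 0.18, and with 10 kb this ratio was 0.17. The mirror ratio gives no value under other totals, nor do the promoter part from PRE2 and the 3′ part from gypsy2 with 10 kb left out.

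The number of *dac* bins called under other settings is given with all bins called of those tested in parentheses. From PRE2 in embryo gypsy2 it was 6 with total-count scaling (94 of 17737) and 7 within 500 kb (199 of 887). It was 8 with DESeq2 (308 of 17737). In larval gypsy2 it was 1 (14 of 14174), 3 (44 of 850) and 2 (133 of 14174) under the same settings. It was 2 with no filter (90 of 20116), with all chromosomes (54 of 21438) and with the replicate block (86 of 14174). In pupal gypsy2 it was 11 with all chromosomes (72 of 58956). Against titled WT it was 9 within 500 kb (103 of 915) and 7 with DESeq2 (294 of 19550). In gypsy1 it was 3 with total-count scaling (140 of 9926) and 3 within 500 kb (96 of 796). It was 2 with no filter (251 of 20689) and 4 with the replicate block (182 of 9926). From gypsy2 the number in embryo gypsy2 was 4 with total-count scaling (127 of 18264) and 6 within 500 kb (194 of 888). It was 9 with DESeq2 (897 of 18264) and 11 with all chromosomes (229 of 59700). In larval gypsy2 total-count scaling, 500 kb and DESeq2 gave 3 (15 of 16881), 3 (19 of 869) and 3 (117 of 16881). It was 6 with no filter (28 of 20117), 9 with all chromosomes (43 of 39037) and 3 with the replicate block (23 of 16881). In pupal gypsy2 the same order gave 5 (32 of 18809), 4 (47 of 888) and 4 (495 of 18809). It was 4 with no filter (38 of 20151) and 13 with all chromosomes (68 of 62346). In gypsy1 it was 1 with the replicate block (59 of 11849).

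Leaving out 1 library gave these ranges. PRE2 window changes were 0.20 to 0.24 for embryo gypsy2, 0.14 to 0.24 for gypsy1 and 0.40 to 0.54 for WT larval against embryo, and from gypsy2 −0.16 to −0.025 for pupal gypsy2 and 0.19 to 0.30 for titled WT. Larval minus embryo changes were −0.16 to 0.050 from PRE2 and −0.19 to 0.10 from gypsy2, and the mirror ratio from PRE2 was −0.0067 to 0.044. From PRE2, *dac* bins called were 4 to 5 in pupal gypsy2 (4 without WT replicate 1 or gypsy2 replicate 3), 1 to 3 against titled WT (1 without titled WT replicates 4, 5 or 6 or gypsy2 replicates 5 or 6) and 0 to 2 in gypsy1 (2 without its column numbered 3). From gypsy2 they were 1 to 2 in embryo gypsy2 (1 without WT replicate 3 or any gypsy2 library), 1 to 5 in pupal gypsy2 (5 without WT replicate 3), 3 to 10 against titled WT (3 without titled WT replicate 5) and 0 to 1 in gypsy1 (1 without its column numbered 3). The share of all 2L bins called in these fits is not given, so the counts are not read as a trait of *dac*.

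Same-numbered libraries deviated together in every pair (correlation over 0.1) only for gypsy1 and WT from gypsy2. Whether the number pairs these libraries was not settled. With the replicate block the PRE2 window of gypsy1 passed (0.18, adjusted p = 0.0103), and no other window call of *dac* changed. Blocks could not be fitted for embryo gypsy2 or titled WT against WT, which share no numbers.

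DESeq2 called more bins over 2L than edgeR, 571 against 34 in pupal gypsy2, 308 against 100 in embryo gypsy2, 133 against 19 in larval gypsy2 and 294 against 42 against titled WT from PRE2. From gypsy2 it called 495 against 29, 897 against 127, 117 against 5 and 589 against 79, and 55 against 30 in gypsy1. Total-count scaling shifted windows called up and down from 40 and 46 to 69 and 26 in embryo gypsy2, from 7 and 11 to 18 and 8 in gypsy1 and from 10 and 1 to 9 and 27 for WT larval against embryo from PRE2. From gypsy2 it shifted them from 138 and 61 to 103 and 84 in embryo gypsy2 and from 61 and 63 to 32 and 75 for titled WT against WT. The shallowest single *dac* bin held 9 counts in 1 library.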
